A study of Mus musculus with 11 samples.

Results

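Cytochrome c oxidase is the last enzyme of the mitochondrial respiratory chain. Several of its small nuclear-encoded subunits exist in an isoform made in most cells and an isoform made in few tissues. The 10 genes described here are the isoform pairs of 5 subunits, Cox4i1 and Cox4i2, Cox6a1 and Cox6a2, Cox6b1 and Cox6b2, Cox7a2 and Cox7a1, and Cox8a and Cox8b, out of 29955 gene symbols in the deposited tables. They were picked by name as isoform pairs, and they were chosen on their FPKM in all 11 samples, which were known beforehand, so their values are given as a description and no test was run on them. Their values come from im-scWAT cells, which are mouse preadipocytes from the stromal vascular fraction of inguinal subcutaneous white fat, immortalized with SV40 large T antigen and differentiated into adipocytes.

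RNA-seq covered 6 samples of a time course and 5 samples of transduced cells. The time course had 1 sample each at D0, D4 and D8 of differentiation with and without rosiglitazone (ROS) at 0.5 μM, a PPARγ ligand that turns these cells toward the beige, heat-producing type. All differentiated cells received the same induction medium with indomethacin, dexamethasone, isobutylmethylxanthine, insulin and thyroid hormone. At D0 the cells were confluent preadipocytes at the start of induction. The labels mark 1 of the D0 samples as ROS plus and do not say whether it was taken before ROS was added. The labels and the methods give different days for the end of ROS treatment, and the samples were grouped by its presence alone. The transduced cells were all at D8 with ROS. They carried a U6-driven short hairpin RNA against endogenous Jmjd1a and a retroviral, LTR-driven human JMJD1A, a histone H3K9 demethylase, in 4 forms, WT (samples WT A and WT B), S265A, which cannot be phosphorylated at that serine, the phosphomimetic S265D, and S265D-H1120Y, which in addition is catalytically dead. S265A, S265D and S265D-H1120Y had 1 sample each. The labels do not say whether WT A and WT B are separate transductions. The depth was 3.10 to 5.29 Gb of mapped bases per sample.

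In textbook terms, cytochrome c oxidase has a core encoded by mitochondrial DNA and a shell of nuclear-encoded subunits that tune its activity, stability and assembly into supercomplexes. Cox6a2, Cox7a1 and Cox8b are the forms of heart, skeletal muscle and, in rodents, brown fat, where thermogenic adipocytes carry dense mitochondria. Cox4i2 is best known from lung and as an oxygen-responsive form, and Cox6b2 from testis. The heading of a muscle and brown fat type therefore holds for only 3 of the 5 tissue isoforms. In mm9, the build of the files, Cox7a1 lies at chr7:30969190-30971049, Cox6a2 at chr7:135348949-135349880, Cox8b at chr7:148084841-148086345 and Cox6b2 at chr7:4703396-4704696, so 4 of the 5 tissue isoforms are on chromosome 7. Cox4i2 lies at chr2:152579909-152590773.

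The sequences of the Cox8 pair are shown because Cox8b alone of the tissue isoforms was listed at 0 in both D0 samples, where Cox8a was abundant. Reads of either isoform can be told apart, as the coding sequences differ at many positions. Capitals mark bases that are identical in the alignment of both coding sequences (GENCODE M1, NCBIM37).
Cox8a: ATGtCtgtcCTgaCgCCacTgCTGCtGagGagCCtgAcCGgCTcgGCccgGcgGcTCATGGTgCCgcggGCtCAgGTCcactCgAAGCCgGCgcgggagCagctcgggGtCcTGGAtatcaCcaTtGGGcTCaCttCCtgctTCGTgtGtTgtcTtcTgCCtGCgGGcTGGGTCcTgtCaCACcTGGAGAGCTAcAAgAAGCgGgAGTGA
Cox8b: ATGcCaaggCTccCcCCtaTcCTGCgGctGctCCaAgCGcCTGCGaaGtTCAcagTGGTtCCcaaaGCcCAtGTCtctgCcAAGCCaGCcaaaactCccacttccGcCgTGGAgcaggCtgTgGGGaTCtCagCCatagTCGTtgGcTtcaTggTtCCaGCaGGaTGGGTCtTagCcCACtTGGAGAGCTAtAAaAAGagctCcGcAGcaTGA
Of 204 aligned bases, 115 were identical (56.4%). In the other pairs the identity was 69.2% for Cox4i1 and Cox4i2, 64.6% for both the Cox6a and the Cox6b pair and 62.6% for Cox7a2 and Cox7a1. The longest exact run shared by the transcripts of a pair was 10 to 14 bases, far below the length of a read. Partial copies elsewhere in mm9, with at least 90% identity over 100 bases or more, were found for Cox6a1 (1), Cox6b1 (2), Cox7a2 (1) and Cox8a (2), at up to 92.8%, 93.4%, 94.8% and 93.5% identity. No such copy was found for Cox4i1 or for the 5 tissue isoforms. The FPKM of those 4 ubiquitous isoforms is thus less certain, since reads can be shared with the copies.

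Promoters are shown for the Cox7a and Cox8 pairs, whose tissue isoforms were past 2-fold with ROS at D8, and for Cox6a1, which held the most CpG dinucleotides. Cox6b2 was past 2-fold too. The windows of Cox6b1 and Cox6b2 are not shown, but their CpG and matches are given below. RefSeq (GRCm38.p6) entries were found for 7 of the 10 genes, and each stretch is the 250 bases before the annotated start, written in the direction of transcription. Both strands were searched for the TATA box TATAAA, the E-box CAGCTG, the nuclear receptor half-site AGGTCA, its longer form AAGGTCA, which contains it, the CCAAT box CCAAT, the ETS site CCGGAAG and the NRF-1 site GCGCATGCG. Capitals mark the matches.
Cox8a, chr19:7217617-7217866, minus strand: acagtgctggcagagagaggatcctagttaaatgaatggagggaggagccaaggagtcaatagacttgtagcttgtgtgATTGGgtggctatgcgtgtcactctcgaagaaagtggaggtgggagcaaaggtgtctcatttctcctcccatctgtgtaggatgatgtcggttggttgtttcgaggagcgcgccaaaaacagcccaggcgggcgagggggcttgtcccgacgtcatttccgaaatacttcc
Cox8b, chr7:140900447-140900696, minus strand: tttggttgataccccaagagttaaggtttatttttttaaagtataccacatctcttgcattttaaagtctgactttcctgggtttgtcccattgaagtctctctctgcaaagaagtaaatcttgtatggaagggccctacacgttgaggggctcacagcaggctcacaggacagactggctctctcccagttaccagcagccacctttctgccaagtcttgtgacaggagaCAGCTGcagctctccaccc
Cox7a2, chr9:79759854-79760103, minus strand: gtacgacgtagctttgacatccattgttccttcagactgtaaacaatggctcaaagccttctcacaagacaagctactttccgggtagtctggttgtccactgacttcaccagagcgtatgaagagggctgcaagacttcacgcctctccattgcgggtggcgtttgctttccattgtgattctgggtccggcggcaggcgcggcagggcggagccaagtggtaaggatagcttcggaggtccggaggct
Cox7a1, chr7:30183921-30184170, plus strand: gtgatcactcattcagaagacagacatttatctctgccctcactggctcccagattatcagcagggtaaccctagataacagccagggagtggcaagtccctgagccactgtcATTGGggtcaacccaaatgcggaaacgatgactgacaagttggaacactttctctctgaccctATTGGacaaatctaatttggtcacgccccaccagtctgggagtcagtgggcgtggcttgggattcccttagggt
Cox6a1, chr5:115348959-115349208, minus strand: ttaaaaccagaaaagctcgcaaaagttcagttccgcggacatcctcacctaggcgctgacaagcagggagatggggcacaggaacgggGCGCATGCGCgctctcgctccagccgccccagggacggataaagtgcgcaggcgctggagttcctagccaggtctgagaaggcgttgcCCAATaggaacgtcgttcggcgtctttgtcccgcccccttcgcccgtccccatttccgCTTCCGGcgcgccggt
The promoters of the ubiquitous isoforms held more CpG dinucleotides. There were 26 in Cox6a1, 14 in Cox6b1, 14 in Cox7a2 and 11 in Cox8a, against 8 in Cox6b2, 4 in Cox7a1 and 1 in Cox8b. The median over 32851 promoters was 6, with quartiles of 2 and 16, and 7.87% of all promoters had fewer CpG than that of Cox8b. The ETS site, present in 6.91% of promoters, was found in Cox6a1 and Cox6b1, and the NRF-1 site, present in 1.45%, in Cox6a1. Cox8b held the E-box, present in 13.0% of promoters. CCAAT, present in 33.9%, was found in Cox6a1, Cox6b1, Cox6b2, Cox7a1 and Cox8a. TATAAA (12.4%), AGGTCA (14.0%) and AAGGTCA (4.08%) were in none of these 7 windows. Cox4i1, Cox4i2 and Cox6a2 had no entry.

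The adipocyte markers followed the labels of the cells, while the preadipocyte and thermogenic markers did so only in part. The summed FPKM of 7 adipocyte markers, such as the adipokine gene Adipoq, was 284 to 286 at D0, 10018 to 36407 at D4 and D8 and 15659 to 29732 in the transduced cells. Most of each sum was Fabp4, with 248 to 249 FPKM at D0 and 31402 at D8 with ROS, while Adipoq was at 0.0519 and 0.121 FPKM at D0. Of 12 skeletal muscle markers, 6 (Ckm, Myog, Myod1, Myf5, Pax7 and Myh4) were at 0 in all 11 samples, and the sum of the list was 0.966 to 1.37 FPKM at D0, 1.79 to 6.28 at D4 and D8 and 7.59 to 24.0 in the transduced cells. The latter was mostly Acta1, up to 19.3 FPKM in WT B, and Mb, the myoglobin gene, up to 15.7 FPKM in WT A. Heart markers summed to at most 2.16 FPKM and testis germ cell markers to at most 1.31. Macrophage markers, chiefly Cd68, summed to at most 4.31 FPKM in the time course and to 5.03 to 21.7 in the transduced cells, with Emr1 and Ptprc at 0 throughout. Endothelial markers summed to at most 3.77 FPKM. Preadipocyte markers summed to 554 to 622 FPKM at D0, 139 to 571 at D4 and D8 and 146 to 569 in the transduced cells. The sum of 571 was that of D8 without ROS and lay within the range at D0. Thermogenic markers summed to at most 0.191 at D0, 9.81 to 109 at D4 and D8 and 13.6 to 136 in the transduced cells. Dio2, a thermogenic marker of this list, was at or below 0.062 FPKM in all 11 samples. In bulk RNA, more cells of a type and more RNA per cell cannot be told apart.

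All 5 ubiquitous isoforms were among the abundant transcripts of preadipocytes, and each stood higher in differentiated cells. FPKM is a level per length of transcript, so it allows a rough comparison between genes that depends on the exon length used. Cox4i1 encodes the common form of subunit 4, the largest nuclear-encoded subunit. Its FPKM was 394, 1238 and 2132 at D0, D4 and D8 with ROS and 435, 977 and 1348 without ROS. Cox8a, a small subunit of the inner membrane, was at 393, 1012 and 1549 with ROS and 398, 838 and 924 without it. Both genes stood higher at every later day, and higher with ROS than without it from D4 on.

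Cox6b1, on the side of the enzyme that faces cytochrome c, was at 282, 781 and 1187 FPKM with ROS and at 330, 634 and 714 without it. Cox6a1 was at 336, 673 and 1099 FPKM with ROS and at 350, 534 and 662 without it. Cox7a2, which lies where the enzyme meets its partners in supercomplexes, was at 216, 410 and 700 FPKM with ROS and at 254, 326 and 456 without it. The ratio of D8 to D0 was 3.24 to 5.42 over these 5 genes with ROS and 1.80 to 3.10 without it, highest for Cox4i1 and lowest for Cox7a2 in both arms.

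The tissue isoforms were low or listed at 0 at D0. For Cox7a1, Cox8b and Cox6a2 most of the difference in FPKM came after D4. Cox7a1 was the only tissue isoform with a clear level in preadipocytes. Its FPKM was 5.45, 14.7 and 156 at D0, D4 and D8 with ROS and 7.49, 10.5 and 42.8 without ROS. Its ratio of D8 to D4 was 10.6 with ROS and 4.07 without it. Cox8b was listed at 0 in both D0 samples, at 1.24 and 1.58 FPKM at D4 with and without ROS, and at 117 and 40.3 FPKM at D8. From D4 to D8 its ratio was 93.9 with ROS and 25.5 without it, from a base of 2285 and 1784 mapped bases.

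Cox6a2 stood above Cox8b and below Cox7a1 at D4 in both arms. Its FPKM was 0.355, 6.99 and 30.1 at D0, D4 and D8 with ROS and 0, 4.17 and 19.4 without ROS. With ROS its ratio was 19.7 from D0 to D4 and 4.31 from D4 to D8, and without ROS the latter was 4.65. The gene shares 69 bases at one end with Itgad, which lies on the opposite strand, and the files count strands apart. Its antisense row was at or below 0.409 FPKM in every sample, at most 0.680% of the sum of both strands.

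The remaining tissue isoforms were near the limit of what the depth can show. Cox6b2 was at 0.0774, 0.466 and 2.21 FPKM with ROS and at 0.116, 0.351 and 0.333 without it, and 2.21 FPKM rested on 6188 mapped bases. Cox4i2 stayed at or below 0.222 FPKM in all 11 samples and rested on at most 598 mapped bases in any of them. It was listed at 0 at D0 without ROS and in the S265D sample.

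**Figure D1:**
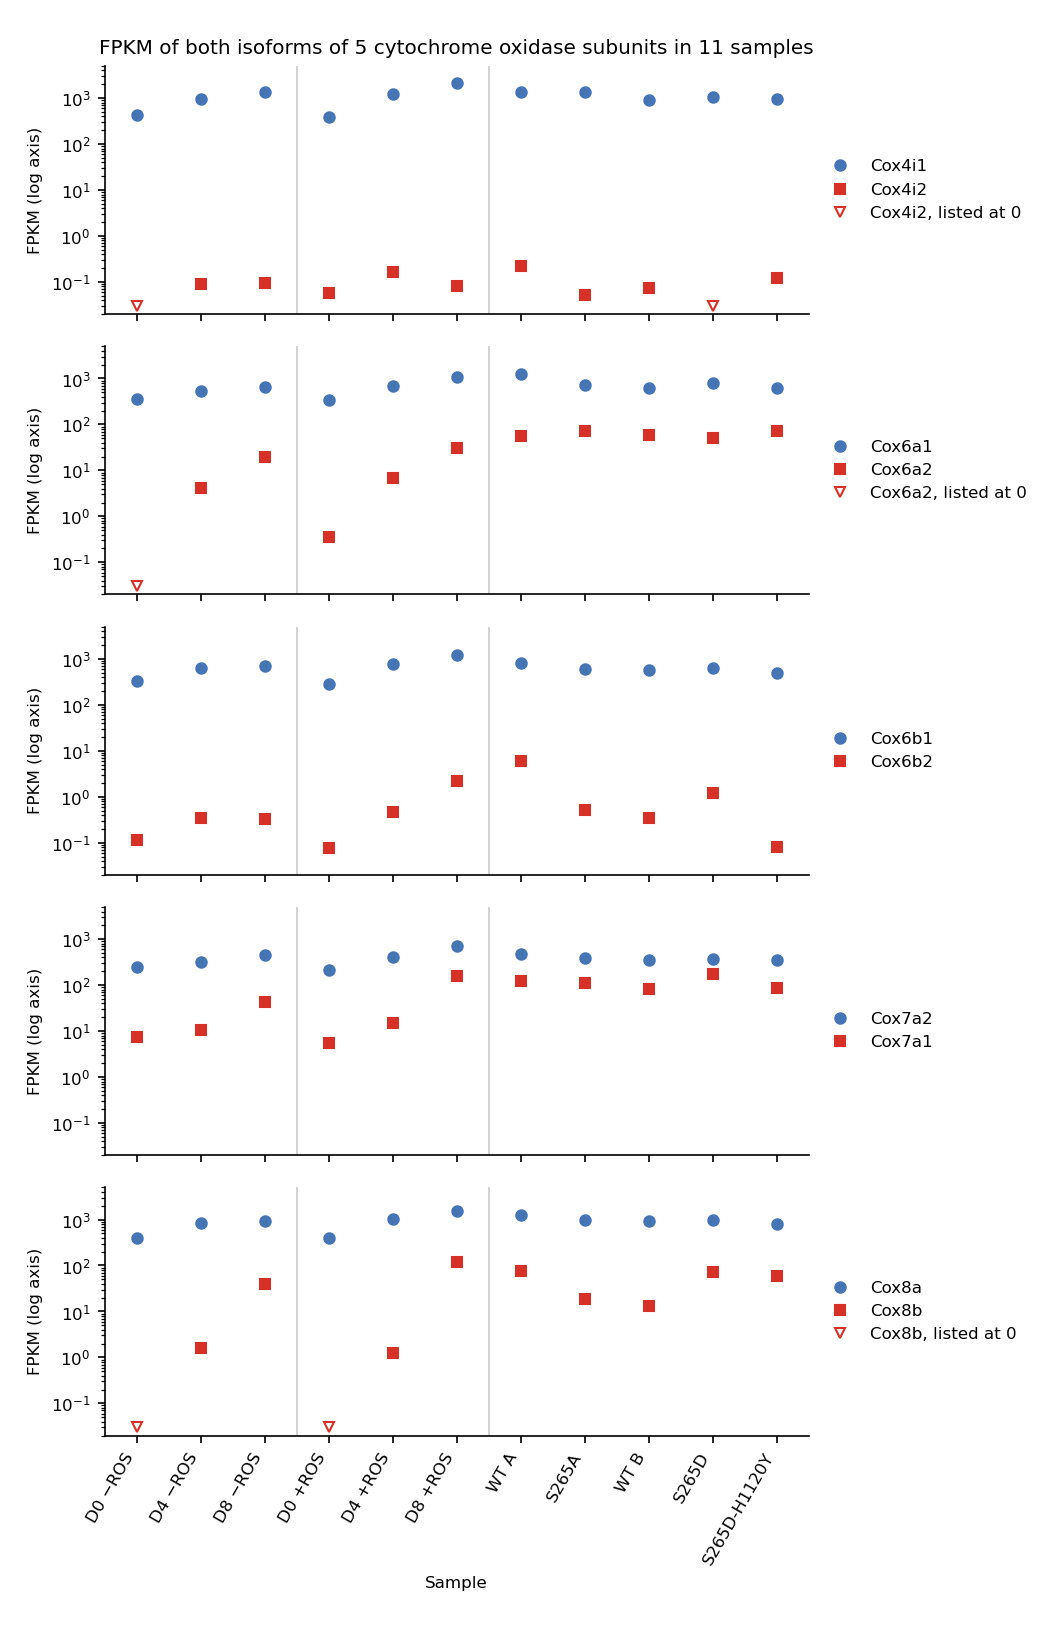
FPKM on a log axis for both isoforms of each of the 5 subunits (blue circles, ubiquitous isoform; red squares, tissue isoform; open triangles at the bottom, listed at 0) in the 6 time course samples, without ROS then with ROS, and in the 5 transduced samples, 1 point per sample. The blue points stay between 216 and 2132 FPKM. In the time course Cox8b, Cox6a2 and Cox7a1 climb from 0 to 7.49 FPKM at D0 to between 19.4 and 156 FPKM at D8.

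With a minimum of 0.1 FPKM in either sample, 9 of the 10 genes were read for a 2-fold ratio of D8 to D0 with ROS. All 9 were higher, where 45.8% of all 15689 genes passed 2-fold in either direction and 20.5% in the higher direction. Without ROS, 7 of 9 were past 2-fold, all higher, against 35.1% of 15823 genes in either direction and 22.0% in the higher direction. Cox6a1 (1.89) and Cox7a2 (1.80) fell short. The ratio for Cox6a2 with ROS was 84.8, for Cox7a1 28.7 and for Cox6b2 28.5, the last from 199 mapped bases at D0. No ratio can be given for Cox8b, which was listed at 0 at D0. Each day and condition has 1 sample, so these ratios have no replicate check.

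In the Cox6a, Cox6b, Cox7a and Cox8 pairs both isoforms were higher at D8 than at D0, and the balance within a pair is given as the share of the tissue isoform. Of the summed FPKM of the Cox7a pair, Cox7a1 made up 2.46% and 2.87% at D0 with and without ROS, 3.46% and 3.12% at D4, and 18.3% and 8.58% at D8. Cox8b made up 0% of its pair at D0, 0.123% and 0.188% at D4, and 7.01% and 4.18% at D8. For Cox6a2 the shares were 0.106% and 0% at D0, 1.03% and 0.776% at D4, and 2.67% and 2.85% at D8. The ROS-treated sample thus had the larger share of Cox7a1 and Cox8b at D8, while the share of Cox6a2 was about equal in both arms. Cox6b2 never exceeded 0.186% of its pair in the time course and Cox4i2 never 0.0150%. With the transcripts of each gene summed, the Cox6b2 share at D8 was 0.552% with ROS and 0.141% without it. These shares are of FPKM, which is corrected for transcript length. Mapped bases are not, and the Cox7a2 row has 754 exon bases and the Cox7a1 row 366. In mapped bases Cox7a1 made up 9.79% and 4.36% at D8.

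Over all 5 pairs, the tissue isoforms made up 4.38% of the summed FPKM at D8 with ROS and 2.45% without it, compared with 0.365% and 0.429% at D0. Even in the ROS-treated adipocytes, the ubiquitous isoform was thus the more abundant of every pair, and 2132 FPKM of Cox4i1 stood against 156 FPKM of Cox7a1, the most abundant tissue isoform.

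**Figure D2:**
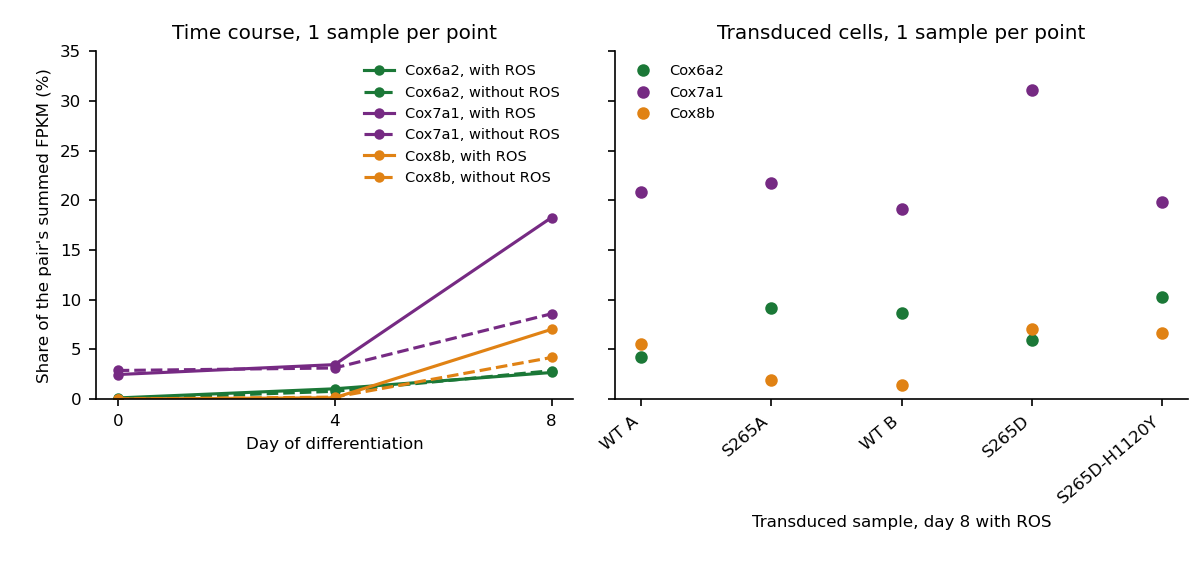
Share of Cox6a2, Cox7a1 and Cox8b in the summed FPKM of their pair, in percent, by day of differentiation (left; solid lines with ROS, dashed lines without) and in the 5 transduced samples (right), 1 sample per point. At D8 the Cox7a1 share is 18.3% with ROS and 8.58% without it, the Cox6a2 lines end together at 2.67% and 2.85%, and among the transduced samples S265D has the highest Cox7a1 share at 31.1%.

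The comparison of ROS plus with ROS minus at D8 asks which genes mark beige over white adipocytes. All 9 genes that passed the minimum had a ratio above 1, while the median over 15536 genes was 0.857. Cox6b2 (6.64), Cox7a1 (3.65) and Cox8b (2.90) were past 2-fold, 3 of 9. Of all genes, 19.2% passed in either direction and 4.00% in the higher direction. The 5 ubiquitous isoforms lay close together, from 1.53 for Cox7a2 to 1.68 for Cox8a. Cox6a2 was at 1.55, within the range of the ubiquitous isoforms. The ratio for Cox6b2 set 6188 against 797 mapped bases. Cox4i2 did not pass the minimum. Cell type markers differed between the same samples. Of 7 adipocyte markers, 6 were higher with ROS and 1, Pparg, lower, among them Adipoq at 1291 and 709, Plin1 at 231 and 144 and Lipe at 450 and 209 FPKM with and without ROS. All 6 preadipocyte markers were lower with ROS, with a sum of 139 against 571 FPKM, and 5 of 6 thermogenic markers were higher, with a sum of 109 against 10.8. Their part in the ratios of the isoforms was not tested.

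The same comparison was made between the D0 samples. The ratio of the sample labelled ROS plus to the one labelled ROS minus was 0.851 to 0.987 for the ubiquitous isoforms and 0.727 for Cox7a1, and 4.90% of 15030 genes were past 2-fold. Of 8 isoform genes that passed the minimum there, 1 was, Cox6a2, at 0.355 FPKM against 0. At D8 the ratios of the ubiquitous isoforms were thus farther from 1 than in that pair and on the other side of it. The 2 WT samples, both at D8 with ROS, differed more from each other than the D0 samples did. Their ratios, WT B to WT A, were 0.507 to 0.759 for the ubiquitous isoforms. For Cox7a1, Cox8b and Cox6b2 these were 0.681, 0.180 and 0.0569. The D0 pair thus does not give the full spread between samples, and whether the ROS ratios exceed that spread was not tested. Of all genes past 2-fold at D8, 622 were higher with ROS and 2366 lower. After the samples were scaled to equal median ratios, these counts were 972 and 1677, the median ratio was 1.02, and the same 3 isoforms were past 2-fold. The log2 ratios of the ubiquitous isoforms were then 0.87 to 0.99 and that of Cox6a2 0.88.

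At D4 the ratios of the ubiquitous isoforms, Cox7a1 and Cox6b2 were closer to 1 than at D8, and those of Cox6a2 and Cox4i2 (1.83) were not. None of the 10 genes was past 2-fold, where 6.70% of 15246 genes were. The ubiquitous isoforms had ratios of 1.21 to 1.27, Cox6a2 1.67, Cox7a1 1.40 and Cox6b2 1.33. Cox8b had a ratio of 0.786, from 1.24 FPKM with ROS and 1.58 without. Of the thermogenic markers, Ucp1, the uncoupling protein gene, was at 0.0360 and 0 FPKM at D4 with and without ROS and at 9.90 and 0.0970 at D8, and Cidea, a lipid droplet gene of brown and beige fat, was at 0.118 and 0.110 and then at 40.8 and 1.34. Elovl3, a fatty acid elongase gene, was earlier, at 12.2 and 7.50 FPKM at D4. Cox8b at 40.3 FPKM and Cox7a1 at 42.8 FPKM were thus present at D8 without ROS, in a sample where Ucp1 was below 0.1 FPKM.

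**Figure D3:**
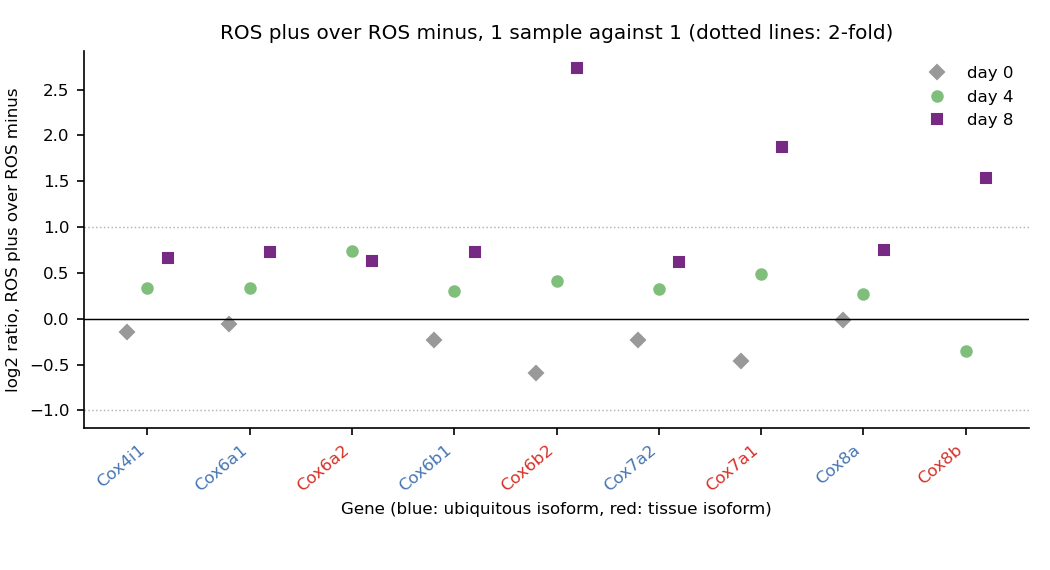
Log2 ratio of FPKM, ROS plus over ROS minus, 1 sample against 1, for 9 genes at D0 (grey diamonds), D4 (green circles) and D8 (purple squares), with dotted lines at 2-fold; blue names are ubiquitous and red names tissue isoforms. At D8 the blue genes lie between 0.62 and 0.75, Cox6a2 lies among them at 0.63, and Cox8b, Cox7a1 and Cox6b2 stand at 1.54, 1.87 and 2.73, while ratios against a value of 0 are not drawn.

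The transduced samples ask whether the S265 site and the demethylase activity of JMJD1A matter for these genes. The row for endogenous Kdm3a, the current symbol of Jmjd1a, was at 13.0 to 28.5 FPKM in the transduced cells and at 15.1 to 23.2 in the time course, so no knockdown showed in it. Whether reads of the human transcript fall on this row was not tested, and it gives no check of the labels. The comparisons are therefore between samples as labelled.

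The WT samples differed from each other most in Cox6b2 and Cox8b. Cox6b2 was at 6.06 FPKM in WT A and 0.345 in WT B, a ratio of WT B to WT A of 0.0569. Cox8b was at 74.6 and 13.5 FPKM, a ratio of 0.180. Cox7a1, at 123 and 83.8, and Cox6a2, at 55.1 and 59.8 FPKM, had ratios of 0.681 and 1.09. The ubiquitous isoforms were 0.507 (Cox6a1) to 0.759 (Cox7a2) times as high in WT B. In all, 3 of 10 genes were past 2-fold, all lower in WT B. Of 15837 genes, 27.2% were past 2-fold in either direction and 10.8% in the lower direction. The thermogenic markers differed the same way, with Ucp1 at 12.1 and 0.724, Cidea at 33.2 and 7.03 and Elovl3 at 70.4 and 2.57 FPKM in WT A and WT B. All 6 preadipocyte markers were higher in WT B, with a sum of 569 against 146 FPKM, as was the macrophage gene Cd68 at 16.6 against 5.00. The 7 adipocyte markers were split. In WT B 4 were lower, such as Plin1 at 158 against 293, and 3 were higher, such as Fabp4 at 26902 against 12393. Their sum, mostly Fabp4, was 29732 FPKM in WT B and 15659 in WT A. The part of these markers in the differences between the WT samples was not tested.

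Over the WT pair, the mean FPKM ± SD (n = 2) was 44.0 ± 43.2 for Cox8b, 3.20 ± 4.04 for Cox6b2, 103 ± 27.7 for Cox7a1 and 57.4 ± 3.33 for Cox6a2. Among the ubiquitous isoforms it was 1159 ± 330 for Cox4i1, 1094 ± 260 for Cox8a, 941 ± 435 for Cox6a1, 695 ± 161 for Cox6b1 and 411 ± 79.7 for Cox7a2. The SDs of Cox4i1, Cox8a and Cox6a1 exceeded the differences between their means, but they include the shift between the 2 samples. The order of these 3 genes was the same in both WT samples. Their FPKM was 1393, 1278 and 1249 in WT A and 926, 910 and 633 in WT B. Cox8b stood above Cox6a2 in WT A and below it in WT B. Cox7a1 stood below Cox7a2 and above Cox6a2 in both WT samples.

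In S265A cells, Cox8b was at 18.6 and Cox6b2 at 0.512 FPKM, which lies between WT A and WT B for both genes. Against the WT mean, the ratios were 0.423 for Cox8b and 0.160 for Cox6b2. With Cox4i2 at 0.346, 3 of 10 genes were past 2-fold, all lower. Of 15681 genes, 9.89% passed in either direction and 6.40% in the lower direction. Against WT B alone, Cox8b had a ratio of 1.38 and Cox6b2 of 1.48, and none of 9 genes was past 2-fold. Of 15706 genes, 5.07% passed in the higher direction there and 7.95% in the lower direction. The lower level in S265A therefore rested on WT A. Cox6a2 at 73.2 and Cox7a1 at 110 FPKM had ratios of 1.27 and 1.06 to the WT mean, and the ubiquitous isoforms 0.769 (Cox6a1) to 1.18 (Cox4i1).

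In S265D cells, Cox7a1 reached 171 FPKM, the highest of all 11 samples, and made up 31.1% of its pair, compared with 20.0% ± 1.22 (SD, n = 2) in WT. Its ratio was 1.65 to the WT mean, 1.39 to WT A and 2.04 to WT B. Cox8b was at 73.7 FPKM, close to WT A (ratio 0.988) and above WT B (5.47). Cox6b2 was at 1.21 FPKM, between the WT samples. Only Cox6b2 (0.376) and Cox4i2, listed at 0, were past 2-fold from the WT mean, 2 of 10 and both lower. Of 15748 genes, 8.67% passed in either direction and 4.56% in the lower direction. Against WT B alone 3 of 9 genes were past 2-fold and all were higher, Cox6b2 (3.49), Cox7a1 and Cox8b. Of 15734 genes, 5.28% passed in the higher direction there. The direction for Cox6b2 thus rested on WT A. Cox6a2 was at 50.4 FPKM (ratio 0.877), and the ubiquitous isoforms had ratios of 0.848 to 0.934.

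The double mutant S265D-H1120Y differs from S265D by the loss of catalysis. Cox6b2 was at 1.21 FPKM in S265D and 0.0791 in the double mutant (ratio 0.0657), which is 3290 against 200 mapped bases. Cox7a1 was at 85.6 FPKM, a ratio of 0.502 that lies at the edge of 2-fold, and Cox8b at 57.8 FPKM, a ratio of 0.785. Cox6a2 was higher, at 71.6 FPKM (1.42). Together with Cox4i2, at 0.120 FPKM against 0, 2 of 10 genes were past 2-fold, 1 in each direction, where 14.3% of 15760 genes were. The ubiquitous isoforms had ratios of 0.779 to 0.917. All 7 adipocyte markers were lower in the double mutant too, with Adipoq at 589 and 396 and Plin1 at 225 and 148 FPKM, as were 5 of 6 preadipocyte and all 6 thermogenic markers. Their part in these ratios was not tested. In the same comparison Ucp1 was at 4.67 and 0.0528 and Cidea at 43.4 and 2.35 FPKM in S265D and S265D-H1120Y. The thermogenic markers Ppargc1a (9.86 and 8.75), Elovl3 (32.3 and 22.0) and Otop1 (1.19 and 0.673 FPKM) differed less. Dio2 was at 0.0619 and 0 FPKM. Cox8b at 57.8 FPKM thus stood beside a Ucp1 level below that at D8 without ROS, though not every thermogenic marker was as low.

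Cox6a2 was at 50.4 to 73.2 FPKM in the 5 transduced samples and at 30.1 in the untransduced cells with ROS at D8. These groups differ in transduction, hairpin and experiment together, which cannot be told apart. The share of Cox6a2 in its pair was 4.22% to 10.2% in the transduced samples. Between S265D-H1120Y and S265D, the ratio of Cox6a2 was above 1 (1.42) and that of Cox8b below it (0.785). Between WT B and WT A, Cox6a2 was nearly equal (1.09) while Cox8b had a ratio of 0.180.

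**Figure D4:**
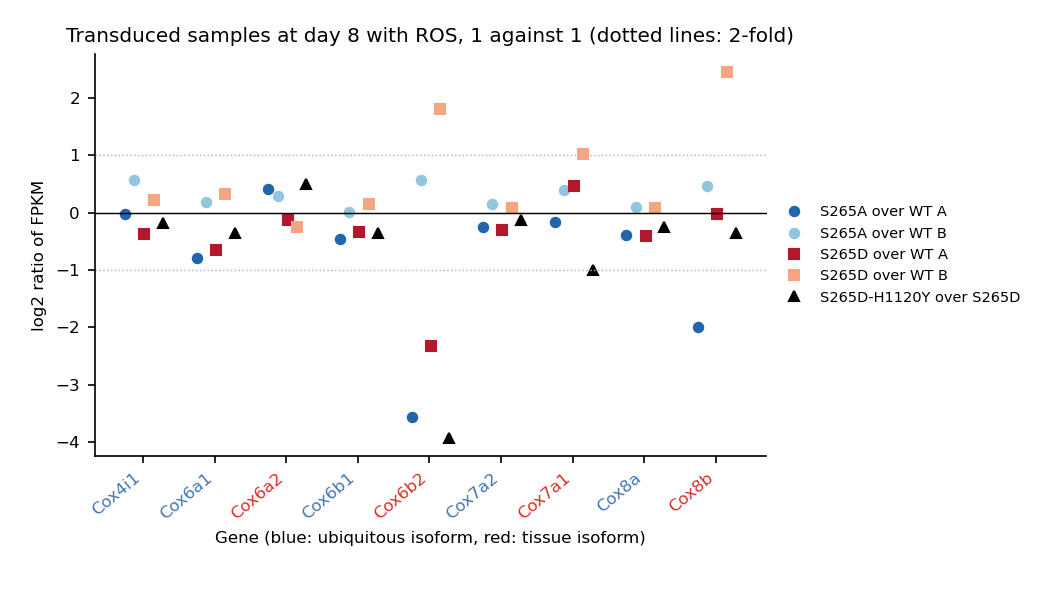
Log2 ratio of FPKM, 1 sample against 1, for S265A (blue circles) and S265D (red squares) over each WT sample, dark over WT A and light over WT B, and S265D-H1120Y over S265D (black triangles), with dotted lines at 2-fold. Cox8b and Cox6b2 lie below 0 for S265A over WT A and above 0 over WT B, at -2.00 and 0.47 for Cox8b, while the ubiquitous isoforms stay within 2-fold in every comparison.

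The other genes of the complex were not used to choose the pairs. Their lists were drawn up with earlier results of these data known, so the test is not independent of these data. These genes were tested with limma on log2(FPKM + 0.1) over the 6 time course samples, with terms for day and ROS. Each day is thus compared over both arms. The fit leaves 2 residual degrees of freedom. Of 32 listed genes, 30 were found and 27 passed a minimum of 1 FPKM. At D8 against D0, 22 of the 27 were higher at an adjusted p under 0.05, where 25.9% of 13159 genes were, and 0 were lower, where 24.7% of all genes were. By an unadjusted p under 0.05, 0 of the 27 were lower too, compared with 3874 of the 13159 genes. The median log2 difference was 0.84, compared with -0.05 over all genes. At D4, 17 of the 27 were higher (22.0% of all genes) and 0 lower (18.5% of all genes). By an unadjusted p under 0.05, 0 of the 27 were lower at D4 and 3193 of all genes. These counts rest on few samples. Without D0 ROS plus, D4 ROS plus, D8 ROS plus or D4 ROS minus the count at D8 was 7, 10, 13 or 10, and at D4 it was 6, 1 and 0 without D0 ROS plus, D4 ROS plus and D4 ROS minus.

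Among the subunits without a tissue isoform in these pairs, Cox5a, Cox5b, Cox6c and Cox7c were higher at D8. Cox7c had the largest log2 difference, 1.87 ± 0.25 (SE, limma, adjusted p = 0.00521), followed by Cox5b at 1.61 ± 0.23 (limma, adjusted p = 0.00631), Cox5a at 1.15 and Cox6c at 0.98. Cox7b was at 0.31 ± 0.25 (limma, adjusted p = 0.339) and Ndufa4, now counted as a subunit of the enzyme, at 0.61 ± 0.22 (limma, adjusted p = 0.0760), and neither passed. The ratios with ROS over without ROS at D8 were 1.52 to 1.81 for these 6 genes, the range in which the ubiquitous isoforms lay. Cox7b had the highest of them, from 254 and 141 FPKM, and its level without ROS did not exceed that at D0, 151 FPKM.

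Cycs, the substrate cytochrome c, had the largest log2 difference of the 27 genes at D8. Its FPKM was 42.3, 362 and 484 with ROS and 42.5, 259 and 196 without, a log2 difference at D8 of 2.86 ± 0.34 (SE, limma, adjusted p = 0.00378), and it alone of the listed genes was past 2-fold with ROS at D8, with a ratio of 2.47. Cox7a2l, a relative of the Cox7a subunits that helps to assemble supercomplexes, was at 105, 171 and 322 FPKM with ROS and 112, 145 and 168 without, a log2 difference of 1.10 ± 0.28 (limma, adjusted p = 0.0288) and a ROS ratio of 1.92. The testis forms Cyct, Cox7b2 and Cox8c stayed at or below 0.0835 FPKM, and Cox8c was at 0 throughout.

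Of 21 assembly factors, 19 passed the minimum and 16 were higher at D8. Cox17, a copper chaperone, and Taco1, which helps to translate mitochondrial Cox1, had the largest ratios of D8 to D0 with ROS, 3.40 and 3.29. Lrpprc, which stabilizes mitochondrial mRNA, and Cox20 had the smallest, 1.18 and 1.29. None of the 19 was past 2-fold with ROS at D8, and their median ratio was 1.14, compared with 1.62 for the subunits without tissue isoform and 1.66 for the ubiquitous isoforms of the pairs.

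The genes whose log2 level followed each tissue isoform most closely over the 11 samples are given as a description, since the points share libraries and all differentiated samples stand apart from D0. For Cox8b they were 2610019F03Rik (Pearson r = 0.98), Phyh, the phytanoyl-CoA hydroxylase gene of peroxisomes (0.98), Rhbdd3 (0.97), Coq10a, of coenzyme Q (0.97), and Cox17 (0.97). For Cox7a1 they were 6030408B16Rik, Mat2b, a second row named MAT2B, Parp6 and AK079954 (0.97 to 0.98). For Cox6a2 they were AK043851, Fam57b, Tspan12, Cyp4f13 and Nup210 (0.98). For Cox6b2 they were the retinol dehydrogenase genes Rdh1 (0.96) and Rdh9 (0.95), Ndufs4, of respiratory complex I (0.95), Gys2, the liver-type glycogen synthase gene (0.94), and Slc25a20, the mitochondrial carnitine carrier gene (0.94). Over the 5 transduced samples alone, r was 0.949 or above for all 5 genes named for Cox6b2, while it was 0.22 for AK043851 and -0.75 for Tspan12 against Cox6a2.

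Among the pairs themselves, Cox7a1 and Cox8b had r = 0.94, Cox6a2 and Cox8b 0.92 and Cox7a1 and Cox6a2 0.90. Cox6b2 stood apart, with 0.50 to Cox6a2, 0.62 to Cox8b and 0.63 to Cox7a1. The partners within these 4 pairs had 0.72 for Cox7a2 and Cox7a1, 0.75 for Cox6b1 and Cox6b2, 0.80 for Cox6a1 and Cox6a2 and 0.85 for Cox8a and Cox8b, and the ubiquitous isoforms had 0.89 to 0.97 with each other.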

How the data were processed

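RNA was measured in 11 im-scWAT samples. The authors made TruSeq libraries, sequenced them on an Illumina HiSeq, aligned reads with the Burrows-Wheeler aligner to UCSC genes and mm9, realigned them locally and kept the strands apart. Tool versions are not given in the sources used here. The values the authors deposited are FPKM per transcript and strand, scaled to the mapped bases of each sample, and a signal, the mapped bases per transcript. Deposited log columns of the same values were not used. There are no read counts, so no count test was run, and the number of reads behind a value is unknown.

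The sense row flagged as representative stood for each symbol. The 10 genes and all gene lists were chosen with earlier results of these data known. Ratios of FPKM were formed for genes with at least 0.1 FPKM in either sample and read at 2-fold with no test, since the genes were chosen on these values. The other genes of the complex were tested with limma 3.58.1 in R 4.3.3 on log2(FPKM + 0.1), for genes with at least 1 FPKM in a sample, with day and ROS as terms, Benjamini-Hochberg adjustment over all 13159 genes and a threshold of 0.05. A fold on that scale understates the change of low genes. The fit was run on simulated data for 11840 genes, with noise of the size seen between the D0 samples and no ROS effect. It called 100 of 100 genes changed 2-fold, 100 of 100 changed 4-fold and 5 unchanged genes. How the fit behaves where a ROS effect differs between days was not tested.

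Named genes were the 10 isoform genes, all subunits, other isoforms and cytochromes c of the fixed lists, the 2 highest and 2 lowest assembly factors by the ratio of D8 to D0 with ROS, and, for each tissue isoform with 1 FPKM or more in a sample, the 5 genes outside the pairs with the highest Pearson r. Of 32 listed genes 30 matched, 7 by older symbols. Sequences were compared with Biopython 1.88 and blastn 2.17.0. Replicates of WT are as the labels give them, and nothing says they came from separate cultures. Alternatives were another representative transcript, summed transcripts, other minimum levels and pseudocounts, scaling to median ratios, mapped bases in place of FPKM, no ROS term, and leaving out each sample.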

Additional observations from a re-analysis of the deposited data

Results flagged for a closer look

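The ratio of ROS plus to ROS minus lay on opposite sides of 1 at D4 and D8 for 2 of the 10 genes. For Cox8b it was 0.786 at D4 and 2.90 at D8, and for Cox4i2 it was 1.83 at D4 and 0.858 at D8. Each ratio sets 1 sample against 1, and the difference between the days was not tested. The D4 values of Cox8b rest on 2285 and 1784 mapped bases, and those of Cox4i2 on at most 598 in any sample.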

How the results depend on the processing

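Without WT A, the S265A to WT log2 ratio turned from -2.65 to 0.57 for Cox6b2 and from -1.24 to 0.47 for Cox8b, and the S265D to WT log2 ratio of Cox6b2 from -1.41 to 1.80. Without WT B these log2 ratios were -3.57, -2.00 and -2.33. The count of genes past 2-fold for S265A was 0 to 3 with either WT sample left out, and for S265D 2 to 3, where the 3 against WT B alone (Cox6b2, Cox7a1 and Cox8b) were all higher and the 2 against the mean or WT A alone (Cox4i2 and Cox6b2) lower. For S265D it was 1 with a minimum of 1 FPKM and 0 with a pseudocount of 1, compared with 2, and for S265D-H1120Y over S265D it was 1 under both settings, compared with 2. The share of Cox7a1 at D8 in mapped bases was 9.79% with ROS and 4.36% without it. The limma counts of other complex IV genes, 22 at D8 and 17 at D4, ranged from 7 to 21 and from 0 to 20 with each sample left out. Except where a setting removes samples or low genes by construction, the cause was not tested. The other 91 of 105 values that answer a comparison, and 244 of 253 values of single genes, stayed within their limits. No paired analysis was possible because the groups compared share fewer than 2 replicate numbers. Depth limits Cox4i2 and Cox6b2, which rest on few mapped bases.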

Other observations

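The mitochondrial gene of the catalytic core, mt-Co2, listed as Cox2, was chosen after its values were seen. Its FPKM was 3541, 7725 and 15720 at D0, D4 and D8 with ROS and 2937, 8287 and 9127 without it. Of the transduced samples, WT A had 11380 FPKM and WT B 6709, S265A had 6206, and S265D and S265D-H1120Y had 10271 and 11274.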
